A study of Arabidopsis thaliana with 10 samples.

Results

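This account covers the 9 Arabidopsis thaliana genes that encode the enzymes placing cytosine methylation on DNA, holding it there and taking it off. They were picked out by locus code, with no expression value in the rule, though earlier results of these data were known when the set was drawn up. Each has a row of its own among the 33297 rows of the expression table. They are the methyltransferases MET1 (AT5G49160), CMT2 (AT4G19020), CMT3 (AT1G69770) and DRM2 (AT5G14620), the chromatin remodeler DDM1 (AT5G66750), and the demethylases ROS1 (AT2G36490), DME (AT5G04560), DML2 (AT3G10010) and DML3 (AT4G34060).

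The samples were whole seedlings aged 7 days, harvested 12 hours after lights-on. The mutants were hda9 (line SALK_007123), hos15 (allele hos15-2, line SALK_064435), pwr (line SALK_071811C) and the hda9 hos15 double mutant, which carries the same 2 insertions as the single mutants, and the control was the Columbia-0 wild type, Col. Each mutation is represented by 1 insertion line. HDA9 is a histone deacetylase, HOS15 a WD40-repeat protein and PWR a SANT-domain protein, and the design text describes the proteins as binding one another. There were 2 libraries of each genotype by the labels, but the authors' table has 1 FPKM value per gene and genotype, a fragment density corrected for transcript length and for library size. No replicate error can be taken from it, no test was possible, and every difference is a description of the authors' values for each genotype.

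In plants, methylation is found at cytosines in CG, CHG and CHH contexts, where H is A, C or T. MET1 copies CG methylation onto new DNA after replication, CMT3 and CMT2 act at CHG and CHH sites that carry methylated histone H3, and DRM2 adds methylation guided by small RNAs. DDM1 opens heterochromatin to the methyltransferases. The demethylases are glycosylases that cut out 5-methylcytosine and start base-excision repair; ROS1 is known for this role in vegetative tissue, DME for imprinting in the central cell of the female gametophyte. The ROS1 transcript is known to be low in mutants that lose DNA methylation.

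Differences between these columns moved with transcript composition, so the most purine-rich coding stretch is shown for the 4 demethylases and, for comparison, for MET1 and CMT3, whose levels lay near Col. Each line is the 100 nt of coding sequence with the most A and G, read 5′ to 3′ on the transcript strand from the longest annotated RefSeq transcript in the TAIR10.1 assembly. Runs of 6 or more purines are in capitals.
ROS1: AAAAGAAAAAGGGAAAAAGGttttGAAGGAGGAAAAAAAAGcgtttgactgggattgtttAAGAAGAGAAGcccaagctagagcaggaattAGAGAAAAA
DME: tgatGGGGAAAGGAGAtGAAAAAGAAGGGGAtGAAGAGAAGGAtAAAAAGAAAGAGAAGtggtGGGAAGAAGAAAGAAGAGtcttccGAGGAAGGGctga
DML2: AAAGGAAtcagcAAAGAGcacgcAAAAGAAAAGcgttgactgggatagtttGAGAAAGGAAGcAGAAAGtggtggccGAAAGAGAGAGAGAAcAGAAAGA
DML3: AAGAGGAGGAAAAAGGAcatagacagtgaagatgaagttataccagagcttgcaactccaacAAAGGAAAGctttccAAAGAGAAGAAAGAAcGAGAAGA
MET1: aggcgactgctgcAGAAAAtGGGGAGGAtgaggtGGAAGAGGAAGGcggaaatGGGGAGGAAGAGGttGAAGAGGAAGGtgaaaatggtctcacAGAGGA
CMT3: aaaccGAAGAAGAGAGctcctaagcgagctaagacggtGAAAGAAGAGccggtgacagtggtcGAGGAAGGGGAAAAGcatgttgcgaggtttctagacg
These stretches held 77 purines in ROS1, 85 in DME, 79 in DML2 and 74 in DML3, against 80 in MET1 and 70 in CMT3. The longest unbroken purine run was 20 nt in ROS1, 18 in DME, 15 in DML2 and 17 in DML3, with 13 in MET1 and 15 in CMT3. In CMT2, DDM1 and DRM2, not shown, such stretches held 75, 70 and 67 purines, with longest runs of 14, 12 and 10 nt.

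All 4 demethylase transcripts were lower in every mutant column than in Col, whereas the transcripts of MET1 and CMT3 lay close to Col. Those of CMT2, DDM1 and DRM2 were also below Col in every mutant, by less than 2-fold. Summed over the 4 genes, demethylase FPKM was 5.03 in hda9, 6.43 in hos15, 3.31 in pwr seedlings and 5.84 in hda9 hos15, against 18.8 in Col. That is 26.8%, 34.3%, 17.7% and 31.2% of the Col level in the same order of mutants. The 4 methyltransferases together kept 76.9% of the Col level in hda9, 83.2% in hos15, 78.4% in pwr seedlings and 90.5% in hda9 hos15. In whole seedlings, fewer cells of a type and less RNA per cell cannot be told apart. The ratio of summed demethylase to summed methyltransferase FPKM was 0.206, 0.244, 0.133 and 0.204 in hda9, hos15, pwr and hda9 hos15, against 0.591 in Col. These sums and ratios include DML2 and DML3, which did not pass the filter given below, and have no adjustment for transcript sequence. The part of transcript composition in the ratio was not tested.

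**Figure D1:**
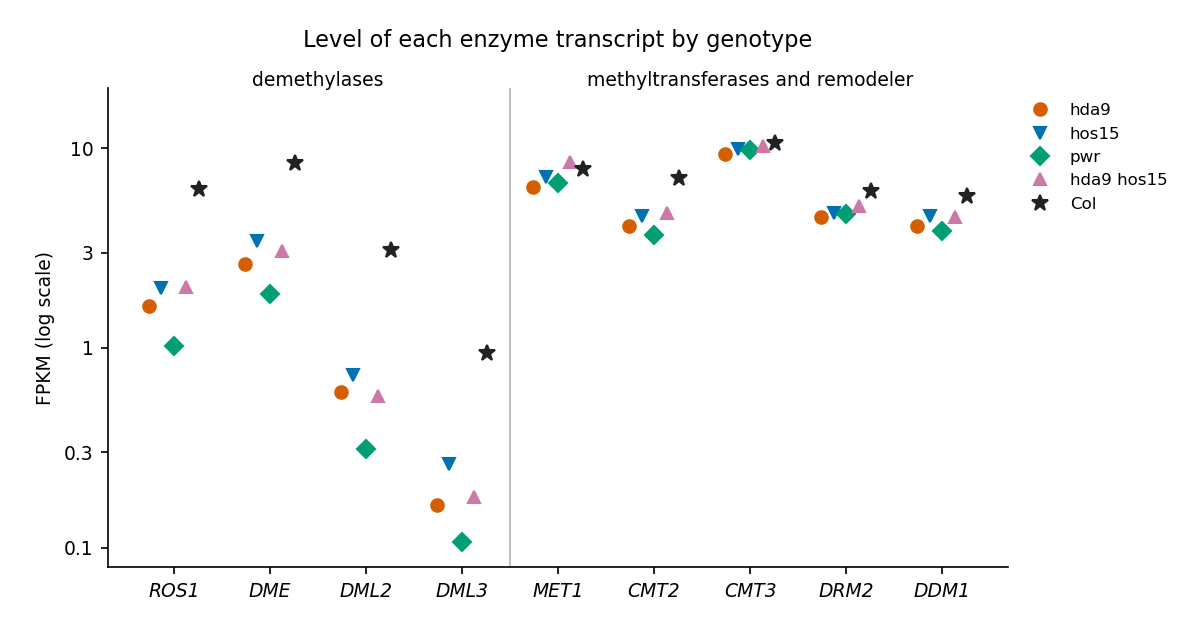
FPKM (log axis) of the 9 transcripts in the 5 genotypes, 1 authors' value per point, with no error available. The Col star stands clear above the mutant points for ROS1, DME, DML2 and DML3, and pwr is lowest for each of them; MET1 and CMT3 points lie close together.

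ROS1 (chromosome 2) stood at 1.61 FPKM in hda9, 2.00 in hos15, 1.02 in pwr seedlings and 2.03 in hda9 hos15, against 6.27 in Col. These are 25.7%, 32.0%, 16.3% and 32.3% of the Col level; pwr was the lowest of the 5, and hos15 and the double mutant were nearly level. On the log2(FPKM + 1) scale, where the fold of a weakly expressed gene comes out too small, ROS1 differed from Col by -1.48 in hda9, -1.27 in hos15, -1.85 in pwr seedlings and -1.26 in hda9 hos15. Genes are called lower here when this difference is -1 or less, a 2-fold size rule applied to genes that reach an FPKM of 1 in 2 or more of the 5 columns. Of 18912 such genes, 4.49% were called lower in hda9, 2.48% in hos15, 7.55% in pwr seedlings and 3.91% in hda9 hos15. A difference as low as that of ROS1 was found for 1.59%, 1.25%, 1.60% and 1.71% of these genes in the same order.

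DME (chromosome 5) was likewise lowest in pwr and highest in Col, with 2.64 FPKM in hda9, 3.43 in hos15, 1.87 in pwr seedlings and 3.06 in hda9 hos15, against 8.43 in Col. It was the most abundant demethylase transcript per length in all 5 columns, ahead of ROS1, DML2 and DML3. The differences from Col were -1.37, -1.09, -1.72 and -1.22 in hda9, hos15, pwr and hda9 hos15, so DME too was called lower in all of them. In hos15 the call was close to the limit, and quantile normalization of the columns put DME at -0.97 there.

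DML2 (chromosome 3) stood at 0.603 FPKM in hda9, 0.733 in hos15, 0.314 in pwr seedlings and 0.576 in hda9 hos15, against 3.11 in Col. Only the Col value exceeded 1 FPKM, so DML2 did not pass the filter and is not among the genes counted. With no filter it would be called lower in all 4 mutants, as would 2.95%, 1.72%, 4.73% and 2.57% of the 33297 rows in hda9, hos15, pwr and hda9 hos15. Its mutant levels were 19.4%, 23.6%, 10.08% and 18.5% of Col, and its differences -1.36, -1.25, -1.65 and -1.38, in hda9, hos15, pwr and hda9 hos15. DML3 (chromosome 4) was the weakest, at 0.164 FPKM in hda9, 0.263 in hos15, 0.107 in pwr seedlings and 0.180 in hda9 hos15, against 0.947 in Col. It stayed under 1 FPKM in all 5 columns and did not pass the filter. The mutant levels of DML3 were 17.3%, 27.7%, 11.3% and 19.0% of Col; on the log2(FPKM + 1) scale its differences, compressed at such low values, were between -0.81 and -0.62. The read depth behind these low values is unknown.

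CMT2 (chromosome 4) lay between the demethylases and the rest. It stood at 4.06 FPKM in hda9, 4.58 in hos15, 3.69 in pwr seedlings and 4.75 in hda9 hos15, against 7.08 in Col. All mutant values were below Col, with differences of -0.68, -0.53, -0.79 and -0.49 in that order, and none reached 2-fold. DDM1 (chromosome 5) stood at 4.10 FPKM in hda9, 4.59 in hos15, 3.85 in pwr seedlings and 4.53 in hda9 hos15, against 5.79 in Col, with differences of -0.41, -0.28, -0.49 and -0.30. DRM2 (chromosome 5) stood at 4.54, 4.75, 4.68 and 5.13 FPKM in hda9, hos15, pwr and hda9 hos15, against 6.09 in Col. Its differences of -0.36, -0.30, -0.32 and -0.21 were small, and with quantile normalization DRM2 lay just above Col in pwr (0.01) and the double mutant (0.05).

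MET1 (chromosome 5) stood at 6.40 FPKM in hda9, 7.20 in hos15, 6.74 in pwr seedlings and 8.53 in hda9 hos15, against 7.92 in Col. In the deposited values it was the only one of the 9 transcripts above Col in any mutant, by 0.10 in the double mutant, and its differences were -0.27 in hda9, -0.12 in hos15 and -0.21 in pwr, the last 2 turning to 0.01 and 0.06 with quantile normalization. CMT3 (chromosome 1) varied least, at 9.41 FPKM in hda9, 9.86 in hos15, 9.77 in pwr seedlings and 10.3 in hda9 hos15, against 10.6 in Col. Its differences of -0.16, -0.10, -0.11 and -0.04 were of the size by which a change of scaling moves all genes: median-ratio scaling shifted the median of all genes in pwr by 0.12, and CMT3 became 0.01 there and 0.04 in the double mutant. In all, 2 of the 7 members that passed the filter, ROS1 and DME, were called lower in each of the mutants, where 4.49%, 2.48%, 7.55% and 3.91% of all genes were called lower in the order used above. None was called higher, where 1.99%, 1.23%, 1.94% and 1.49% of all genes were called higher in hda9, hos15, pwr and hda9 hos15. The median difference of the 7 was -0.41, -0.30, -0.49 and -0.30 in hda9, hos15, pwr and hda9 hos15, beside -0.04, -0.01, -0.09 and -0.07 for all 18912 genes. After removal of the trends with transcript sequence described below, the median of the 7 was -0.16, -0.18, -0.02 and 0.02 in the same order.

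**Figure D2:**
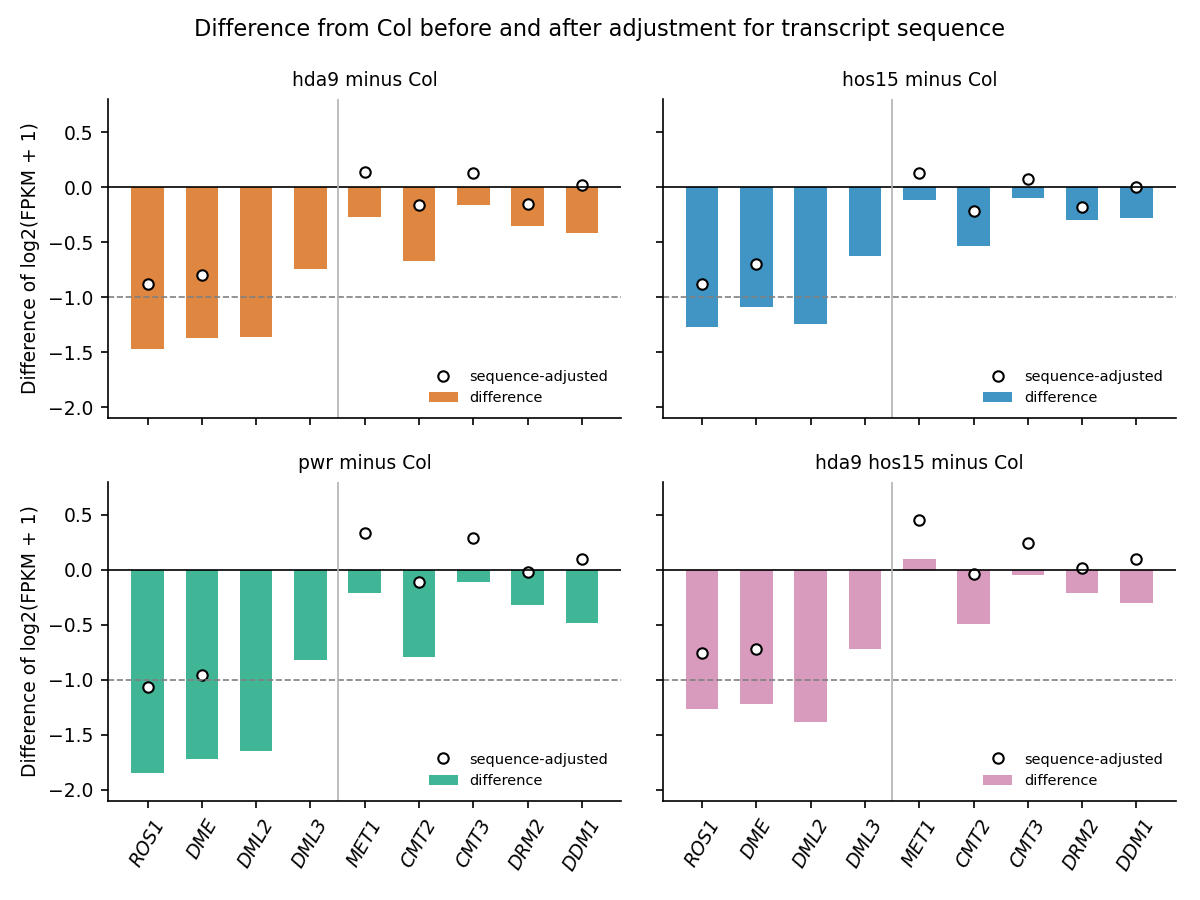
Difference of log2(FPKM + 1) from Col in each mutant (bars) and the part left after trends with transcript sequence were removed (open circles), with the 2-fold line dashed; DML2 and DML3 did not pass the filter and have no circle. ROS1 and DME pass the line in all panels before adjustment, and ROS1 only in pwr (-1.06) after it.

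The comparisons with Col share its single column, so the mutants were also set against one another. None of the 7 members that passed the filter was 2-fold apart in any of the 6 comparisons between mutants, where all genes gave 1.85% for the double mutant and hda9, 1.29% for the double mutant and hos15, 0.74% for hda9 and hos15, 0.925% for hda9 and pwr, 1.2% for hos15 and pwr and 1.2% for the double mutant and pwr. The largest difference was that of DME between hos15 and pwr, 0.63, followed by ROS1 between the double mutant and pwr, 0.58, and between hos15 and pwr, 0.57. Between hda9 and pwr, ROS1 differed by 0.37, DME by 0.34, and MET1 by -0.06. These values set pwr lowest for the demethylases without using Col. For ROS1 and DME they were smaller after removal of the trends with transcript sequence described below. Between hos15 and pwr, 0.18 was left for ROS1 and 0.26 for DME, and between the double mutant and pwr 0.31 and 0.24. Between hda9 and pwr the values left were 0.18 and 0.16.

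The double mutant lay close to both single mutants for the demethylases. Its ROS1 level exceeded that of hda9 by 0.21 and that of hos15 by 0.01, and its DME level lay 0.16 above hda9 and, at -0.13, below hos15. DML2 differed by -0.02 from hda9 and by -0.14 from hos15. The largest difference of the double mutant from either parent was that of MET1, which stood 0.37 above hda9 and 0.22 above hos15 in the double mutant.

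The 9 transcripts share features that the choice of members did not use. None overlaps another annotated gene on either strand, they have 10 to 23 exons, and at 2331 to 6963 nt all are longer than the median of 1714 nt over the 18079 protein-coding genes examined. All are richer in purines than the median transcript (50.6%). Purine content was 54.6% in ROS1, 54.4% in DME, 56.1% in DML2 and 53.8% in DML3, against 53.4% in MET1, 53.8% in CMT2, 52.1% in CMT3, 51.95% in DRM2 and 53.6% in DDM1. The longest exact stretch shared by any pair of demethylase transcripts was 23 nt, between ROS1 and DML2. MET1 shared up to 48 nt with its paralog MET2A (AT4G14140), which was listed at 0.110 to 0.231 FPKM in the mutants, against 0.225 in Col.

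Transcripts of this composition were low in the mutant columns as a class. Among the 1402 protein-coding genes with more than 54% and up to 56% purine, where ROS1 and DME lie, the median difference from Col was -0.47 in hda9, -0.32 in hos15, -0.65 in pwr seedlings and -0.43 in hda9 hos15, and 16.5%, 7.28%, 30.0% and 11.2% of them were called lower. DML2 lies among the 466 genes with more than 56% and up to 58%, whose medians were -0.76, -0.58, -1.02 and -0.67. DML3, CMT2, DDM1, MET1 and CMT3 lie in the range above 52% and up to 54%, 3395 genes with medians of -0.21, -0.14, -0.32 and -0.24. ROS1 and DME were thus lower than the median gene of their purine range in every mutant, and CMT3 was higher. MET1 was higher than that median in hos15, pwr and the double mutant and lower in hda9.

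Sequence-adjusted values are what remained of each difference after fitted trends with purine percentage, GC percentage and length were removed. The trends took up 34.2% of the variance over genes in hda9, 28.2% in hos15, 41.6% in pwr seedlings and 33.8% in hda9 hos15. ROS1 was left at -0.88, -0.88, -1.06 and -0.76 in that order, and DME at -0.80, -0.70, -0.96 and -0.72. Only ROS1 in pwr stayed past 2-fold. With the same adjustment 1.37%, 0.824%, 2.26% and 1.23% of protein-coding genes were called lower in hda9, hos15, pwr and hda9 hos15. Values as low as that of ROS1 after adjustment were found for 2.16%, 1.23%, 1.85% and 3.26% of protein-coding genes, and as low as that of DME for 2.88%, 2.64%, 2.59% and 3.86%. The methyltransferases and DDM1 moved to between -0.21 and 0.46, with CMT2 at -0.17, -0.21, -0.11 and -0.04. The part of transcript composition in the demethylase values was not tested.

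**Figure D3:**
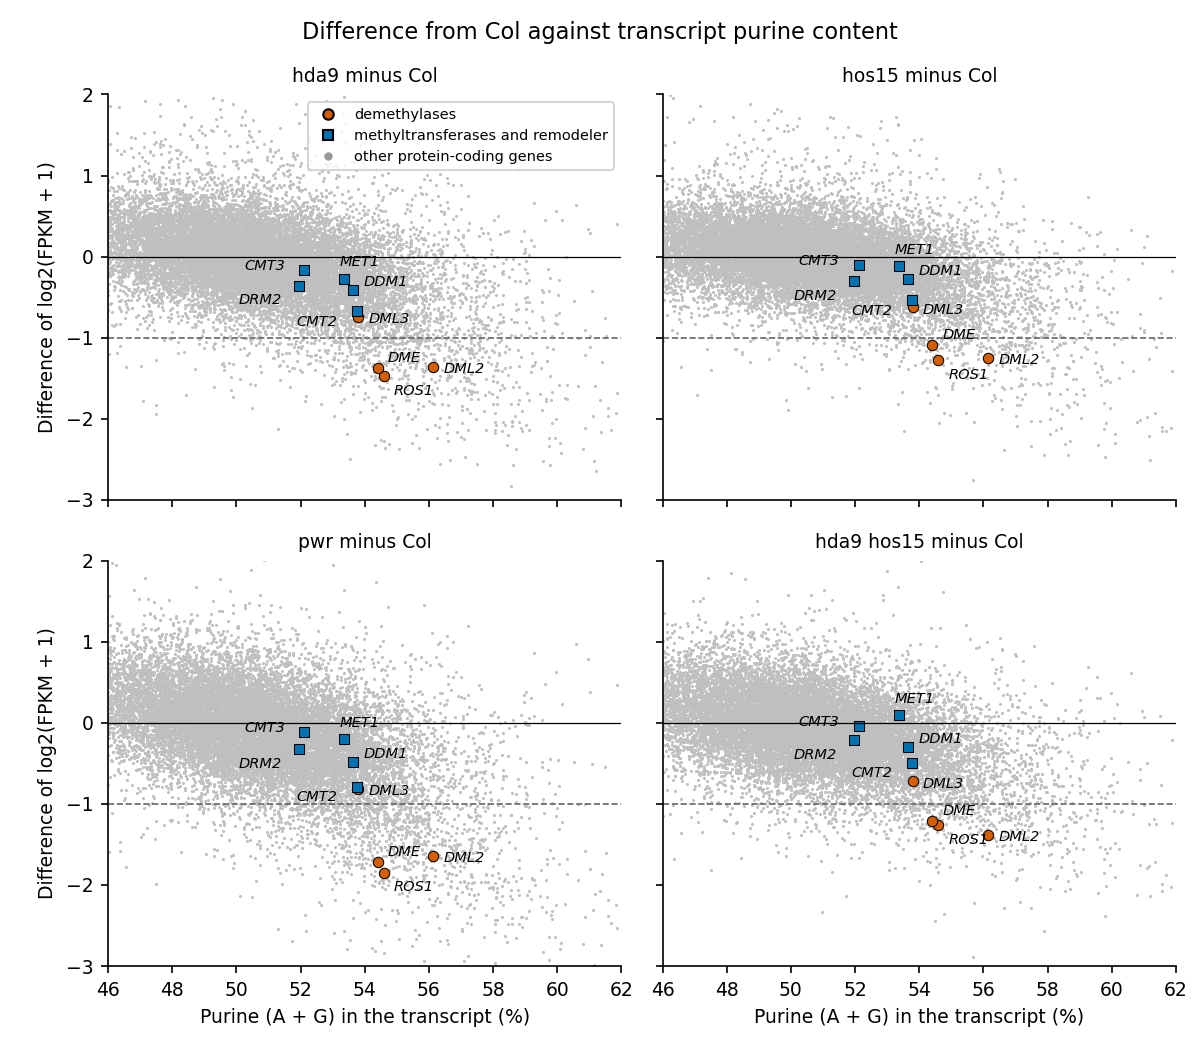
Difference of log2(FPKM + 1) from Col against the purine percentage of the transcript for protein-coding genes that passed the filter (grey) and the 9 enzymes, whether they passed it or not (coloured), shown from 46% to 62% purine and from -3 to 2. The grey cloud slopes down to the right in each panel; ROS1, DME and DML2 lie below the middle of the cloud at their purine content, and MET1 and CMT3 lie near its middle or above.

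Profiles over the 5 columns were compared with those of other genes that carry a symbol, by the distance between row-centred log2(FPKM + 1) values. For ROS1 the nearest of 8201 genes were NET1C, an actin-binding protein gene, at a distance of 0.087, and PLE, which encodes a microtubule-associated protein of cell division, at 0.102; DME was the 5th nearest at 0.144. The nearest to DME were HAF01, a histone acetyltransferase gene of the TAF1 type, at 0.063 and KAT1, a potassium channel gene, at 0.077. DML2 was nearest to PMI15, a plastid movement gene, at 0.101 and to FLP, a MYB regulator of stomata, at 0.103. These distances used values without sequence adjustment. Purine content was 59.5% in NET1C, 54.2% in PLE, 57.0% in HAF01, 49.9% in KAT1, 61.0% in PMI15 and 55.4% in FLP. The median transcript has 50.6%. The part of transcript composition in these likenesses was not tested. The distances from ROS1 to CMT2, DDM1, DRM2, MET1 and CMT3 were 0.796 to 1.30, the last 2 with ranks of 3157 and 3476.

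The partners of these enzymes were followed in lists chosen by function. Of 7 genes that maintain methylation with MET1 and CMT3 or guard genes against it, 5 passed the filter. None was called in any mutant, where 4.49%, 2.48%, 7.55% and 3.91% of all genes were called lower in hda9, hos15, pwr and hda9 hos15. The shares of all genes called higher were 1.99%, 1.23%, 1.94% and 1.49%. IBM1 (AT3G07610), a histone demethylase that keeps CHG methylation out of gene bodies, lay furthest below Col of the 5. It stood at 3.41, 4.26, 2.97 and 3.89 FPKM in hda9, hos15, pwr and hda9 hos15, against 6.51 in Col. Its transcript is 57.3% purine, and after sequence adjustment IBM1 stood at 0.28, 0.26, 0.41 and 0.24. Of 6 methyltransferase paralogs, 1 passed the filter: DRM3 (AT3G17310), which assists DRM2, at 7.03 to 7.56 FPKM in the mutants, against 8.03 in Col. The other 5, MET2A, MET2B, MEE57, CMT1 and DRM1, were listed at 0.231 FPKM or less in all 5 columns.

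Of 19 genes of RNA-directed DNA methylation, the pathway that guides DRM2, 18 passed the filter. IDN2 (AT3G48670), an RNA-binding protein of the late steps, was called lower in all mutants, SPT5L (AT5G04290), a partner of RNA polymerase V, was called lower in pwr, and none was called higher. These are 1 of 18 in hda9, hos15 and the double mutant and 2 of 18 in pwr, beside 4.49%, 2.48%, 3.91% and 7.55% of all genes in hda9, hos15, the double mutant and pwr, and none stayed past 2-fold with sequence adjustment. IDN2 stood at 1.14 FPKM in hda9, 2.05 in hos15, 0.884 in pwr seedlings and 2.21 in hda9 hos15, against 8.43 in Col, differences of -2.14, -1.63, -2.32 and -1.56. Its transcript is 59.1% purine, and the adjusted values were -0.84, -0.60, -0.69 and -0.44. SPT5L, at 60.9% purine, stood at 1.70 FPKM in pwr, against 4.40 in Col, and its difference of -1.002 became 0.51 with adjustment. The list's median was -0.30 in hda9, -0.26 in hos15, -0.32 in pwr seedlings and -0.23 in hda9 hos15. With sequence adjustment the list's median was -0.04, -0.09, -0.02 and -0.03 in the same order. SHH1 (AT1G15215), which brings RNA polymerase IV to its targets, marked the upper end of the list in hda9, pwr and the double mutant, at 6.43 to 7.99 FPKM over the 4 mutants, against 6.66 in Col.

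Of 11 partners of demethylation, 9 passed the filter, and the genes called lower were ROS3 (AT5G58130) in hda9 and pwr, and IDM1 (AT3G14980), ARP (AT2G41460) and ZDP (AT3G14890) in pwr. These are 1 of 9 in hda9 and 4 of 9 in pwr, beside 4.49% and 7.55% of all genes. None was called in hos15 or the double mutant, where 2.48% and 3.91% of all genes were called lower and 1.23% and 1.49% higher. ROS3, an RNA-binding protein that acts with ROS1, stood at 4.13 FPKM in hda9, 5.30 in hos15, 3.42 in pwr seedlings and 6.04 in hda9 hos15, against 10.8 in Col. In pwr, IDM1, the histone acetyltransferase that prepares chromatin for ROS1, stood at 2.48 FPKM, against 7.09 in Col, and the repair endonuclease ARP stood at 2.00, against 6.59 in Col. The DNA 3′ phosphatase ZDP, which cleans the ends left by ROS1, stood at 2.61 FPKM in pwr, against 6.46 in Col. With sequence adjustment none of the 9 stayed past 2-fold; ARP, at 52.8% purine, kept -0.91 in pwr, and IDM1 was left at -0.15. AE7 (AT1G68310), which helps deliver iron-sulfur clusters to DNA enzymes, lay above Col in all mutants, at 43.1 to 50.4 FPKM, against 33.8 in Col. The remaining kept partners, MBD7, APE1L, LIG1 and MET18, differed from Col by -0.41 to 0.06.

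**Figure D4:**
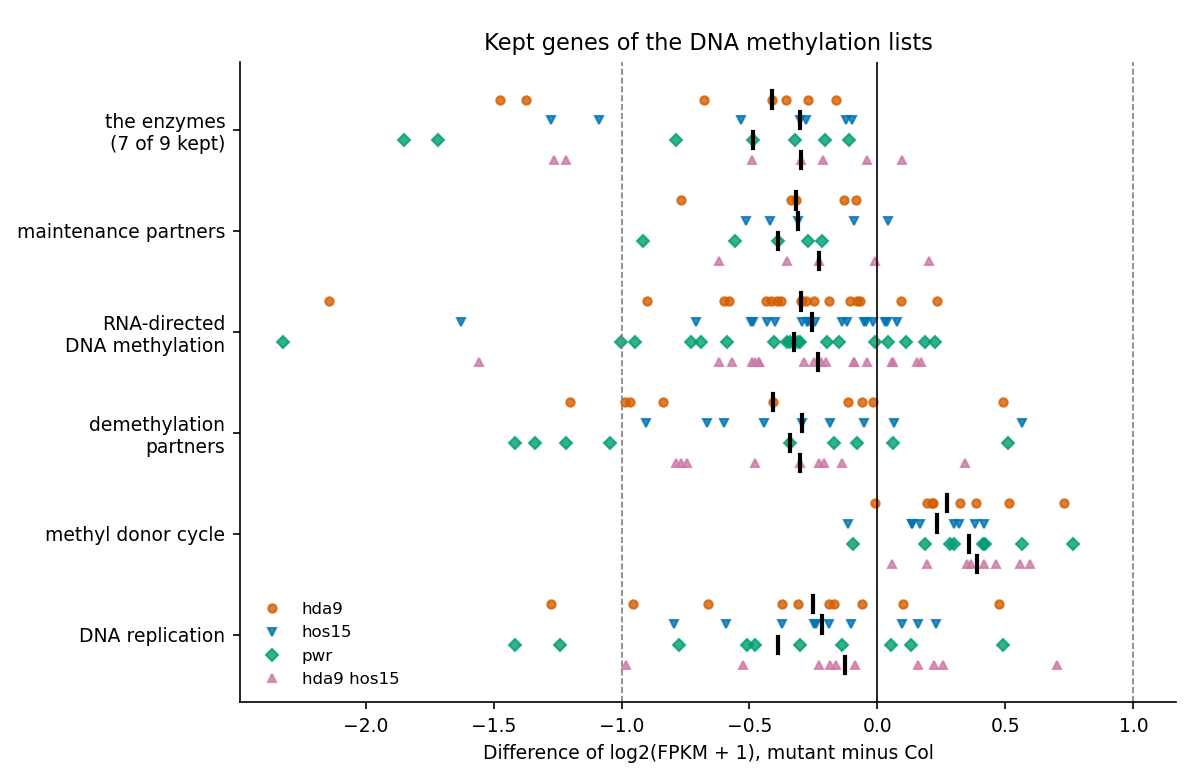
Difference of log2(FPKM + 1) from Col for the genes of each list that passed the filter, 1 point per gene and mutant, with black bars at the medians and dashed lines at 2-fold. ROS1 and DME stand apart on the left in the top row, IDN2 does so in the third row, and the methyl donor genes lie mostly to the right of 0.

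None of the 8 genes of the methyl donor cycle, which make S-adenosylmethionine and clear its by-product, was called in any mutant. Of all genes, 4.49%, 2.48%, 7.55% and 3.91% were called lower and 1.99%, 1.23%, 1.94% and 1.49% higher in hda9, hos15, pwr and hda9 hos15. The medians of the 8 genes were 0.27, 0.23, 0.36 and 0.39 in hda9, hos15, pwr and hda9 hos15. With sequence adjustment the medians were 0.14, 0.12, 0.14 and 0.24. SAHH1 (AT4G13940), the hydrolase whose loss lowers DNA methylation, stood at 660, 601, 785 and 680 FPKM, against 462 in Col. Its differences were 0.51, 0.38, 0.76 and 0.56, and 0.20, 0.13, 0.34 and 0.25 with sequence adjustment. Of 10 DNA replication genes, MCM6 (AT5G44635) was called lower in hda9 and pwr and MCM3 (AT5G46280) in pwr, with no gene called higher; both encode subunits of the replicative helicase. These are 1 of 10 in hda9 and 2 of 10 in pwr, beside 4.49% and 7.55% of all genes. With sequence adjustment none stayed past 2-fold, MCM6 being left at -0.63 in hda9 and -0.56 in pwr and MCM3 at -0.70 in pwr. MCM6 stood at 1.85 FPKM in hda9 and 1.59 in pwr, against 5.91 in Col. TSO2 (AT3G27060), a ribonucleotide reductase subunit, marked the upper end at 65.1 to 90.8 FPKM in the mutants, against 55.5 in Col. The median of the 10 genes was -0.25, -0.22, -0.39 and -0.13 in hda9, hos15, pwr and hda9 hos15. With sequence adjustment this median was -0.10, -0.01, -0.11 and 0.16 in the same order.

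Transcripts whose silencing is known to depend on DNA methylation were also examined. SDC (AT2G17690) was listed at 0.105 to 0.149 FPKM in the mutants, against 0.192 in Col, and FWA (AT4G25530) at 0.0380 FPKM or less in the mutants, against 0.0655 in Col. QQS (AT3G30720), an orphan gene whose level varies with its methylation, stood at 4.80 FPKM in hda9, 3.79 in hos15, 2.01 in pwr seedlings and 2.42 in hda9 hos15, against 1.82 in Col. It was called higher in hda9 (1.04) and was below 2-fold there with sequence adjustment (0.69). SDC and FWA did not pass the filter, so QQS was 1 of 2 genes counted, beside 1.99% of all genes called higher in hda9. EPF2 (AT1G34245), a stomatal peptide gene known to be silenced when ROS1 is lost, stood at 4.05, 4.72, 5.01 and 7.15 FPKM in hda9, hos15, pwr and hda9 hos15, against 6.98 in Col, without reaching 2-fold. Its differences were -0.66, -0.48, -0.41 and 0.03 in that order, and -0.85, -0.64, -0.56 and -0.10 with sequence adjustment.

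As a check of the labels, HDA9 (AT3G44680) stood at 1.70 FPKM in hda9 and 1.76 in the double mutant, against 7.79 in Col, and PWR (AT3G52250) at 2.18 FPKM in pwr, against 8.38 in Col. HOS15 (AT5G67320) stood at 2.16 FPKM in hos15 and 1.89 in the double mutant, against 16.2 in Col, but was also at 4.37 in hda9 and 3.17 in pwr, whose labels name no mutation in it. The HOS15 transcript is 57.9% purine, and with sequence adjustment HOS15 was left at -0.68 in hda9 and -0.76 in pwr, beside -1.65 in hos15 and -1.72 in the double mutant. The leaf markers RBCS1A and CAB1 and the root markers EXP7, CASP1 and PHT1;1 were present in all columns. All 5 lay above Col in each mutant, the leaf pair by 0.35 to 1.04 and the root genes by 0.11 to 0.74. CAB1 was called higher in pwr (1.04), where 1.94% of all genes were called higher. With sequence adjustment the leaf pair stood at 0.08 to 0.44 and PHT1;1 at 0.25 to 0.33. CASP1 then lay below Col in all 4 mutants (-0.43 to -0.15) and EXP7 in hos15, pwr and the double mutant (-0.29 to -0.07). The seed markers CRU3 and SESA1 were at 0.0652 FPKM or less in the mutants, against 0.182 and 0.149 in Col, and FIS2 was listed at 0 throughout. The part of tissue make-up in the demethylase values was not tested.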

How the data were processed

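Libraries of whole seedlings were prepared with Illumina's TruSeq stranded kit, per the labels' protocols. The submitters' processing notes name TopHat2, Cufflinks, Cuffdiff and TAIR10. Tool versions, settings and roles, the way libraries were combined and the use of strand in counting were not given in the sources used here. The deposited values are FPKM, made by the authors, with 1 value per gene and genotype. The mutant columns name their libraries; the wild-type column does not, and was assigned to Col as the only wild type. Column sums were between 1142810 and 1326090 in the mutants, against 955700 in Col. FPKM gives no counts, so depth, intervals and detection limits are unknown.

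Differences of log2(FPKM + 1), with a pseudocount of 1, were taken over 10 pairs of columns. A gene was called at a difference of at least 1 (2-fold), in either direction, among 18912 rows with an FPKM of 1 or more in 2 or more of the 5 columns. Sequence-adjusted values are residuals from additive cubic splines (5 knots each) of purine percentage, GC percentage and log2 length, fitted to 18079 protein-coding genes of at least 300 nt, with each gene's longest RefSeq transcript in TAIR10.1. Procedures were tested on simulated data. Members and lists were chosen with earlier results of these data known. The text names all members, list genes that were called in any comparison, up to 6 per list, with others needed to describe the range, and for members ranging over at least 1 on the log2 scale the 2 genes with the most similar profile. Python 3.11.15, pandas 2.3.3, numpy 2.4.6 and Biopython 1.88 were used. Alternatives covered the pseudocount, filter, scaling, size rule and sequence adjustment. TAIR10.1 may differ from the files' TAIR10, so no coordinates are printed.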

Additional observations from a re-analysis of the deposited data

How the results depend on the processing

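The calls on members, 2 in each mutant against Col and 0 between mutants, kept to that number with a pseudocount of 0.1 and median-ratio scaling. Of the 18912 genes, 1273, 746, 2044 and 1211 were called lower with a pseudocount of 0.1 in hda9, hos15, pwr and hda9 hos15. With median-ratio scaling 700, 419, 1157 and 589 of 18895 genes were called lower in the same order. Without a filter DML2 joined ROS1 and DME, giving 3 in each mutant against Col. The count against Col was 0 in all 4 mutants with a pseudocount of 5 and with a mean FPKM of at least 5, which left 3 members and removed both ROS1 and DME. With sequence adjustment it was 0 in hda9, hos15 and the double mutant and 1 (ROS1) in pwr, and the same with the highest purine percentage of a 100-nt window as a further predictor, an alternative chosen after seeing the data. At 3-fold it was 0 in hda9, hos15 and the double mutant and 2 in pwr. Of the 18912 genes, 240, 124, 499 and 155 were lower by 3-fold in hda9, hos15, pwr and hda9 hos15. Quantile normalization gave 1 (ROS1) in hos15, where 396 of 18939 genes were called lower. At 1.5-fold CMT2 joined ROS1 and DME in hda9 and pwr, giving 3 there, and between hos15 and pwr DME gave a count of 1, against 0 at 2-fold. Of the 18912 genes, 2357 were lower by 1.5-fold in hda9 and 3386 in pwr. Between hos15 and pwr, 1216 of them were higher in hos15 by 1.5-fold and 239 lower. With a pseudocount of 5 ROS1 differed from Col by -0.77, -0.69, -0.90 and -0.68 in hda9, hos15, pwr and hda9 hos15, and with 0.1 by -1.89, -1.60, -2.51 and -1.58. The called differences of ROS1 and DME from Col stayed negative with median-ratio scaling, quantile normalization and the sequence adjustments. A change of pseudocount, filter or size rule cannot turn the sign of a difference. Among the list genes, the difference of SPT5L in pwr, -1.002, turned to 0.51 with sequence adjustment. No paired analysis was possible because the table gives 1 value per genotype, and for the same reason no replicate could be left out.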

Other observations

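Other glycosylases of base-excision repair were chosen after values of the demethylases were seen. All 6 examined passed the filter. None was called in any mutant, where 4.49%, 2.48%, 7.55% and 3.91% of all genes were called lower in hda9, hos15, pwr and hda9 hos15. The shares of all genes called higher were 1.99%, 1.23%, 1.94% and 1.49%. OGG1 (AT1G21710), which removes oxidised guanine, stood at 14.8, 14.1, 13.4 and 14.0 FPKM in hda9, hos15, pwr and hda9 hos15, against 14.0 in Col. FPG1 (AT1G52500), at 56.3% purine, lay furthest below Col, with differences of -0.77, -0.46, -0.93 and -0.83 that became -0.08, 0.07, 0.01 and -0.22 with sequence adjustment.

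The relatives of IDN2 in RNA-directed DNA methylation, FDM1 to FDM5, were chosen after the value of IDN2 was seen. Of the 5 genes, 4 passed the filter, and 4, 3, 4 and 3 of these were called lower in hda9, hos15, pwr and hda9 hos15, beside 4.49%, 2.48%, 7.55% and 3.91% of all genes. With sequence adjustment the counts were 0, 0, 1 and 0, beside 1.37%, 0.824%, 2.26% and 1.23% of protein-coding genes. FDM5 (AT1G80790) lay furthest below Col, at 2.27, 2.78, 1.40 and 3.41 FPKM in that order, against 12.4 in Col. Its transcript is 58.6% purine, and FDM5 was left at -0.94, -0.96, -1.11 and -0.71 with sequence adjustment, whereas FDM2 (AT4G00380) was left at -0.24, -0.01, -0.24 and 0.12 and FDM3 (AT3G12550) at -0.35, -0.33, -0.43 and -0.25. FDM1 (AT1G15910) stood at 1.70, 2.38, 0.842 and 2.35 FPKM, against 5.89 in Col. The part of transcript composition in these values was not tested.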
